A study of Homo sapiens with 8 samples.

Results

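PPA2 knockdown was compared with a control hairpin in DLD1 cells, a human colorectal adenocarcinoma line, kept under hypoxia for 12 hours before collection. The comparison uses 4 of the 8 libraries of the series, namely both libraries of cells with a hairpin against PPA2 (genotype label PPA2 knockdown) and both libraries of cells with a control hairpin (genotype label WT), from the hypoxia table with all of its 60612 genes. Hypoxia was common to all 4 libraries. A single hairpin construct is named for PPA2, no second hairpin or rescue is named, and the labels do not say whether libraries 1 and 2 of a group came from separate cultures, so the p-values measure the spread between these libraries only. The oxygen tension is not given in the labels. Poly(A) RNA was sequenced with a directional kit, and levels were deposited as FPKM, fragments scaled to gene length and to the mapped fragments of the library.

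PPA2 encodes the inorganic pyrophosphatase of the mitochondrial matrix, which splits pyrophosphate into phosphate. Pyrophosphate is released by DNA and RNA polymerases, by aminoacyl-tRNA synthetases and by enzymes that activate fatty acids, and its removal pulls these reactions forward. PPA1 is the cytosolic enzyme. In cells short of oxygen, HIF transcription factors raise genes of glycolysis, pH control and oxygen sensing, and mitochondrial respiration is cut back.

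Sequences are shown here for 3 sets of genes picked for large changes. For the first and second sets, values are not levels of the mature RNA. The first is a trio of mitochondrial tRNA genes that were at 0 or only a few FPKM in control cells. They are given 5′ to 3′ on the coding strand from GENCODE 29 (GRCh38), with the anticodon in capitals. MT-TY, the tyrosine tRNA gene, lies at chrM:5826-5891 on the minus strand, MT-TC, the cysteine tRNA gene, at chrM:5761-5826 on the same strand, and MT-TL1, a leucine tRNA gene, at chrM:3230-3304 on the plus strand.
MT-TY: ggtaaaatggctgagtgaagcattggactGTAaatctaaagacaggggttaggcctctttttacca
MT-TC: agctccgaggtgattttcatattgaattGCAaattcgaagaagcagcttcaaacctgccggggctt
MT-TL1: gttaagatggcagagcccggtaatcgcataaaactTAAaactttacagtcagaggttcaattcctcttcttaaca

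The second set is a pair of box C/D small nucleolar RNA (snoRNA) genes with very low values in knockdown cells. Reads from introns of their host genes cannot be told apart from reads of these genes. Box C/D snoRNAs lie in introns of other genes and guide methylation of ribosomal RNA or spliceosomal RNA. The capitals mark the first TGATGA (C box) and the last CTGA (D box) of the same annotation. SNORD14E lies at chr11:123058077-123058161 (minus strand) within HSPA8, and SNORD6 at chr11:93731502-93731574 (minus strand) within TAF1D.
SNORD14E: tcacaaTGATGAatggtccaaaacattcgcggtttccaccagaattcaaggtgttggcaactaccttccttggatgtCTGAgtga
SNORD6: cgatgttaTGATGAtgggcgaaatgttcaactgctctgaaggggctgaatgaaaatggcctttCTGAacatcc

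The third set is the promoters of 3 stress genes that were far lower in knockdown cells, shown from 250 bases before to 50 bases after the RefSeq gene start (GRCh38.p14, plus strand). Capitals in the promoters of the heat shock genes HSPA6 (chr1:161524290-161524589) and HSPA1B (chr6:31827488-31827787) mark GAANNTTC, 2 facing units of the element that heat shock factors bind, which reads the same on both strands. Capitals in the promoter of ANKRD37 (chr4:185396591-185396890), a HIF target, mark ACGTG, a form of the core of the HIF element, searched on both strands. The 3 matches there include 2 that overlap in CACGTG.
HSPA6: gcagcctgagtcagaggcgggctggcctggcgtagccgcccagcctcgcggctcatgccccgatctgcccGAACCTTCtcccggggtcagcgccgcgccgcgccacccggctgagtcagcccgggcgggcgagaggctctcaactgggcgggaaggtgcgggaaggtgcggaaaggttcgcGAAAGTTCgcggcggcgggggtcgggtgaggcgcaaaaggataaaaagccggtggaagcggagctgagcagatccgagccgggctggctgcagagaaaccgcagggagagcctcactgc
HSPA1B: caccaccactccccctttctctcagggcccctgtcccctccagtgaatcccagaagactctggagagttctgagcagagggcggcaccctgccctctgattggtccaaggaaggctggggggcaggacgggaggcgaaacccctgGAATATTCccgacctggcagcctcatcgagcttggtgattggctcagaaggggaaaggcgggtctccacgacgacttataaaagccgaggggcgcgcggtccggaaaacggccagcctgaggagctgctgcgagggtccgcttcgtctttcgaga
ANKRD37: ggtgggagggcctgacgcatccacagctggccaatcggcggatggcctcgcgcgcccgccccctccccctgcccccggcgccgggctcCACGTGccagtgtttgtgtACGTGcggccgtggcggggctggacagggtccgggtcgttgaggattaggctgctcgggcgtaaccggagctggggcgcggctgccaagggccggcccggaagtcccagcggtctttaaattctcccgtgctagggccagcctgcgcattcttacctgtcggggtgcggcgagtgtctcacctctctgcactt

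Libraries were closer within groups than between them. Pearson correlation of log2(FPKM + 1) across the 13080 genes with a mean of at least 1 FPKM was 0.994 between knockdown libraries, 0.992 between control libraries, and between 0.930 and 0.934 across groups. FPKM summed to 380990 and 381354 in the knockdown libraries, against 424998 and 405999 in the control libraries. Read depth is unknown, because the table gives no counts and whole reads could not be recovered from it. The mitochondrial genome held 12.52% and 12.36% of this sum in the knockdown libraries, against 8.446% and 7.596% in the control libraries. Cytosolic ribosomal protein genes held 12.87% and 13.1% in the knockdown libraries, against 17.22% and 16.23% in the control libraries. Colon epithelium genes were expressed in part. The 18 colon epithelium markers summed to 3684 and 3663 FPKM in the knockdown libraries, against 3550 and 3207 FPKM in the control libraries. Of them, 11 averaged at least 1 FPKM, including EPCAM, CDX2 and keratins 8, 18 and 19. These keratins made up most of the sum. CDX1, MUC2 and GUCA2A stayed at 0.222 FPKM or less in every library, and LGALS4 at 1.3 FPKM or less. FABP1, SLC26A3 and CHGA, 3 markers of mature colon cell types, were at 0 throughout. The 10 fibroblast markers summed to 4.47 and 3.34 FPKM in the knockdown libraries, against 1.66 and 1.94 FPKM in the control libraries, and 4 of them were at 0 in all libraries. The 10 leukocyte markers summed to 1.69 and 1.99 FPKM in the knockdown libraries, against 1.001 and 0.560 FPKM in the control libraries, with PTPRC at 0 in all. The 7 endothelial markers summed to 0.287 and 0.262 FPKM in the knockdown libraries, against 0.129 and 0.365 FPKM in the control libraries.

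PPA2 was reduced in both knockdown libraries. It had 9.85 and 9.0002 FPKM in the knockdown libraries, against 65.5 and 50.8 FPKM in the control libraries. Every knockdown value lay below every control value, and limma gave a log2 fold change of -2.49 ± 0.12 (SE, adjusted p = 3.01e-05) on the log2(FPKM + 1) scale, which understates the change of genes with low levels. PPA2 lies at chr4:105369077-105474081 (GRCh38, minus strand). PPA1 had 127 and 130.2 FPKM with PPA2 knocked down, compared with 241 and 226 FPKM with the control hairpin. It was lower in both knockdown libraries (log2 fold change -0.86 ± 0.065, adjusted p = 1.03e-04). Among other enzymes reported to act on pyrophosphate, PRUNE1 was higher, at 8.65 and 8.50 FPKM in knockdown cells, against 5.3998 and 6.27 FPKM in control cells (log2 fold change 0.49 ± 0.10, adjusted p = 0.00485). LHPP, a phosphatase, and ANKH, a pyrophosphate exporter, did not pass the test, and ENPP1 and ALPL stayed below the level needed for one.

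A large share of the transcriptome differed between knockdown and control cells. Of the 13080 genes tested, 7637 (58.4%) were called at an adjusted p under 0.05, 3219 of them higher (24.6%) and 4418 lower (33.8%) in knockdown cells. At least 2-fold changes were fewer, with 355 genes higher and 682 lower. Values of the knockdown libraries lay wholly to one side of the control libraries for 10517 genes (80.4%). A lack of overlap between the groups therefore says little here about any one gene. Most genes named below were picked from the called genes, so lack of overlap among them is no support. The split between directions depends on scaling. Called genes were 42.2% higher and 57.8% lower as deposited, 53.5% higher and 46.5% lower after rescaling each library to a common FPKM sum, and 60.3% higher and 39.7% lower after leaving out the mitochondrial genome and rescaling. The median log2 fold change of all tested genes was -0.06 as deposited and 0.10 with the mitochondrial genome left out. Small list medians as deposited are to be read against the first value, and those with the mitochondrial genome left out against the second. Counts of called genes in a list are to be read against 24.6% higher and 33.8% lower. Bulk libraries also cannot tell fewer cells of a kind from less RNA per cell.

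**Figure D1:**
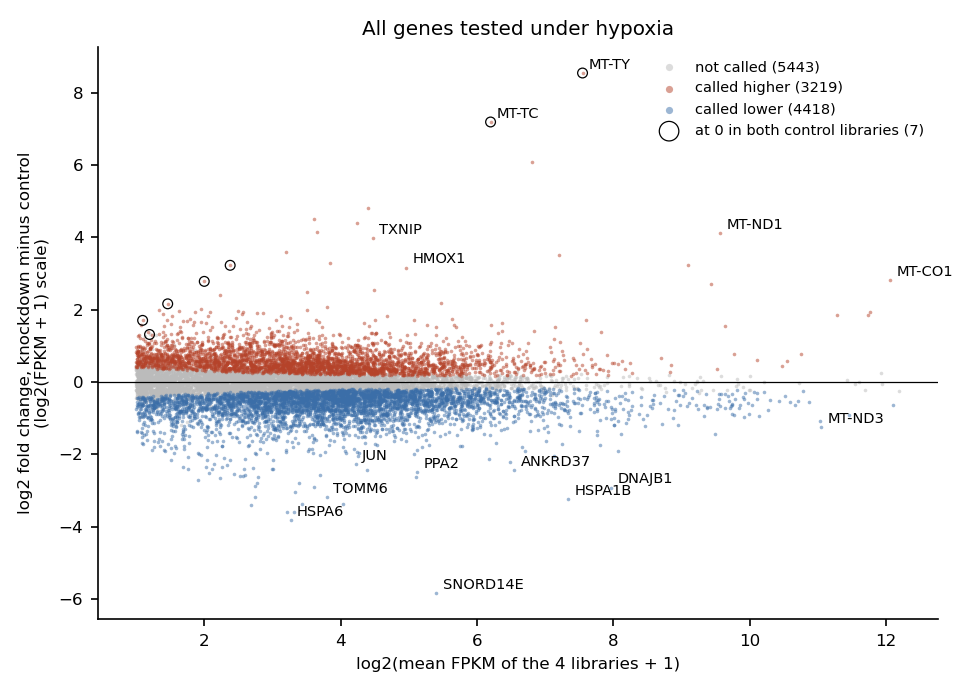
Log2 fold change, knockdown minus control, against mean level for all 13080 genes tested, with called genes in colour and genes at 0 in both control libraries circled. Fitted fold changes of circled genes depend on the value added before taking logs. Mitochondrial genes, TXNIP and HMOX1 stand at the top, and SNORD14E and heat shock genes at the bottom.

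Outside the mitochondrial genome, the largest rises with at least 10 FPKM in the higher group were in TXNIP and HMOX1. TXNIP, an arrestin that binds thioredoxin and takes glucose transporters off the cell surface, had 40.7 and 41.0 FPKM in the knockdown libraries, against 1.65 and 1.70 FPKM in the control libraries (log2 fold change 3.97 ± 0.079, adjusted p = 1.44e-06). It lies at chr1:145992435-145996600. HMOX1, haem oxygenase, had 56.2 and 54.1 FPKM with PPA2 knocked down, compared with 5.63 and 4.91 FPKM with the control hairpin (log2 fold change 3.17 ± 0.084, adjusted p = 4.60e-06). Both were low in the control libraries and many times higher in both knockdown libraries. The protein-coding genes that followed were chosen after their values were seen. They included SLC5A3, a myo-inositol transporter, at 72.3 and 72.04 FPKM in knockdown cells, against 12.96 and 17.2 FPKM in control cells, and this gene shares 5′ exons with MRPS6. NPNT, a matrix ligand of an integrin, had 22.6 and 20.6 FPKM in the knockdown libraries, against 3.95 and 4.84 FPKM in the control libraries. SPTSSB, a subunit of serine palmitoyltransferase, had 17.3 and 17.0 FPKM with PPA2 knocked down, compared with 3.58 and 3.53 FPKM with the control hairpin. The cell adhesion genes PCDH1 (1.91 on the log2 scale) and CDH17 (1.62), the sodium pump subunit ATP1B1 (1.73) and the glycosyltransferase MGAT5 (1.75) were also higher.

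**Figure D2:**
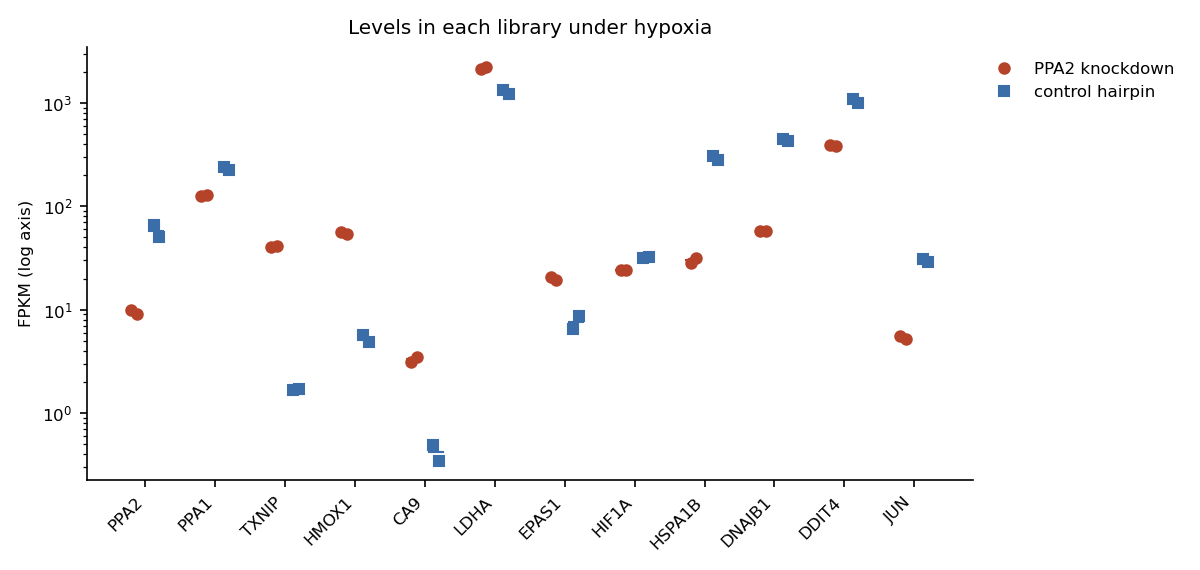
FPKM on a log axis for 12 genes, with each PPA2 knockdown library as a circle and each control library as a square, and bars at group means. PPA2, PPA1, HIF1A, HSPA1B, DNAJB1, DDIT4 and JUN sit lower in knockdown libraries, and TXNIP, HMOX1, CA9, LDHA and EPAS1 higher.

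Genes of the mitochondrial genome changed in both directions. It carries 37 genes, 13 for proteins of respiratory complexes I, III, IV and V, 2 for ribosomal RNAs and 22 for tRNAs, and it is read from both strands as long precursors that are later cut at the tRNAs. The protein genes split, with 6 higher, 4 lower and 3 not called, so transcripts cut from shared precursors differed in direction within the same libraries. Poly(A) RNA was sequenced, and tails of mitochondrial mRNAs and rRNAs were not measured. A change in their level therefore cannot be told apart from a change in capture.

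Complex I genes showed both directions. MT-ND1 had 1443 and 1415 FPKM in knockdown cells, against 87.1 and 76.8 FPKM in control cells, a log2 fold change of 4.11 ± 0.078 (adjusted p = 1.44e-06). MT-ND5 had 1249 and 1137 FPKM in the knockdown libraries, against 193 and 173 FPKM in the control libraries. MT-ND6, the only protein gene on the minus strand, had 279 and 259 FPKM with PPA2 knocked down, compared with 25.3 and 19.9 FPKM with the control hairpin. All 3 were far higher in knockdown cells, with no overlap. MT-ND4 and MT-ND4L, which overlap and share 1 mRNA, had log2 fold changes of 1.93 and 1.86. Against these, MT-ND2 fell to 1358 and 1317 FPKM in knockdown cells, against 3072 and 2618 FPKM in control cells (log2 fold change -1.08 ± 0.10, adjusted p = 1.84e-04). MT-ND3 fell to 1282 and 1234 FPKM in the knockdown libraries, against 3210.3 and 2767 FPKM in the control libraries (log2 fold change -1.24 ± 0.10, adjusted p = 1.09e-04). MT-ND1 and MT-ND2 are neighbours on the same strand, parted by 3 tRNA genes, and were changed in opposite directions.

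In complex IV, MT-CO1 had 7489 and 7431 FPKM with PPA2 knocked down, compared with 1128 and 986 FPKM with the control hairpin (log2 fold change 2.82 ± 0.10, adjusted p = 1.05e-05) and was the most abundant of these mRNAs in knockdown cells. MT-CO2, its neighbour, had 3486 and 3361 FPKM in knockdown cells, against 5817 and 4827 FPKM in control cells (log2 fold change -0.63 ± 0.11, adjusted p = 0.00296). With no filter on low values, MT-CO2 was not called (limma adjusted p = 0.172). The adjusted p of MT-CO2 was 0.106 without knockdown library 1 and 0.133 without knockdown library 2. MT-CO3 had 3834 and 3821 FPKM in the knockdown libraries, against 4407 and 3637 FPKM in the control libraries, and was not called (log2 fold change -0.06 ± 0.11, adjusted p = 0.645). MT-CYB of complex III fell to 1974 and 1951 FPKM with PPA2 knocked down, compared with 3941 and 3420.3 FPKM with the control hairpin (log2 fold change -0.90 ± 0.10). The overlapping ATP synthase genes MT-ATP6 and MT-ATP8 had log2 fold changes of -0.21 and -0.24 and were not called (adjusted p = 0.163 and 0.0829). Without control library 2, 7 of the 15 mRNA and rRNA genes were called lower instead of 4.

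Both ribosomal RNAs were higher in these poly(A) libraries. MT-RNR2, the large one, had 3936 and 3875 FPKM in knockdown cells, against 1087 and 1073 FPKM in control cells. MT-RNR1, the small one, had 1187 and 1197 FPKM in the knockdown libraries, against 379.5 and 434 FPKM in the control libraries. The groups did not overlap for either gene (log2 fold changes 1.85 ± 0.076 and 1.55 ± 0.084).

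All 20 tRNA genes that reached 1 FPKM on average were higher, but 16 of them had a mean under 1 FPKM in control cells and reached the test through the knockdown libraries alone, so this count is no support. Summed over 22 tRNA genes, levels were 1933 and 1945 FPKM in the knockdown libraries, against 126.8 and 108.1 FPKM in the control libraries. MT-TY, printed above, had 354.1 and 390.7 FPKM in the knockdown libraries and was listed at 0 in both control libraries. MT-TC, which touches it at a shared end base, had 139.4 and 150.5 FPKM in the knockdown libraries and was listed at 0 in both control libraries. MT-TL1 had 224 and 213 FPKM with PPA2 knocked down, compared with 4.56 and 0.900 FPKM with the control hairpin; its log2 fold change ran from 5.30 to 6.85 when 1 library was left out, the highest without control library 1. MT-TS1, a serine tRNA gene next to MT-CO1 on the other strand, was the most abundant tRNA gene, at 994 and 976 FPKM in knockdown cells, against 113 and 93.5 FPKM in control cells. In all, 7 tRNA genes were listed at 0 in both control libraries, 5 of them among the 8 on the minus strand. The 8 minus-strand tRNA genes summed to 1566 and 1599 FPKM in the knockdown libraries, against 113.8 and 94.8 FPKM in the control libraries. tRNA genes are shorter than a typical sequenced fragment, so their FPKM is not a level of mature tRNA and does not compare with that of longer genes. The strand setting used in counting is not given in the sources used here, and minus-strand genes lie opposite plus-strand precursors, so reads of both strands may not have been told apart.

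**Figure D3:**
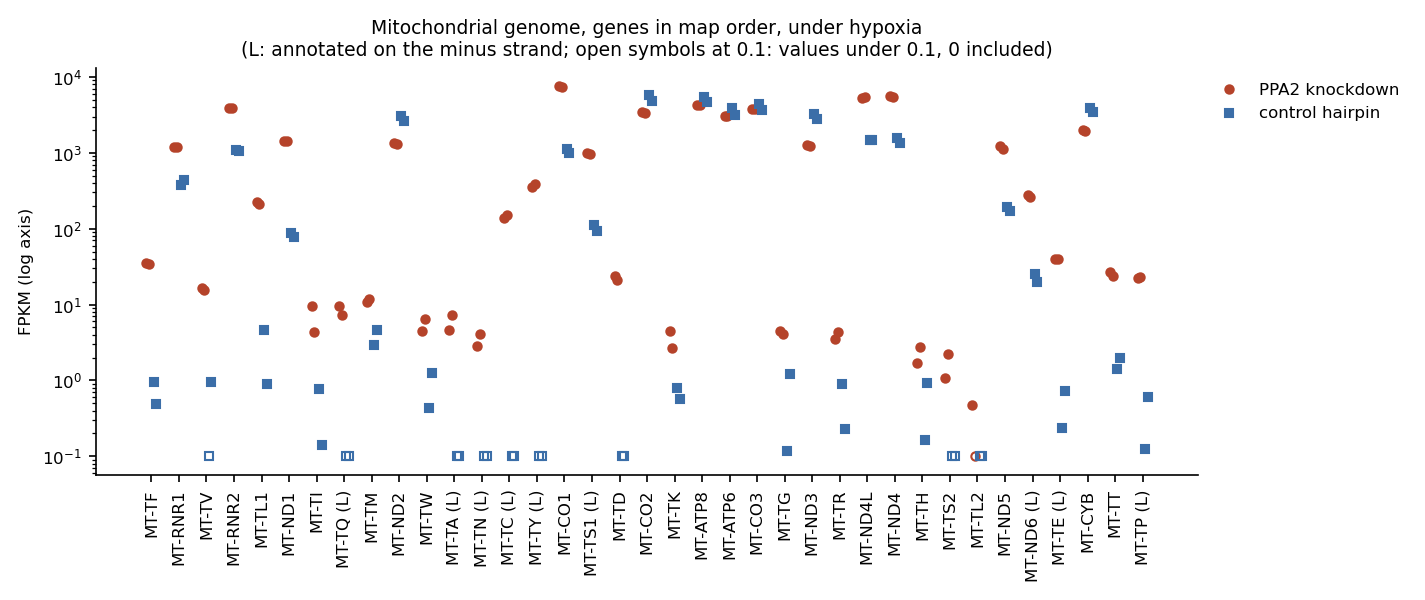
FPKM on a log axis of the 37 mitochondrial genes in map order, with PPA2 knockdown libraries as circles and control libraries as squares, genes on the minus strand marked L, and values under 0.1 drawn open at 0.1. Knockdown values lie far above control values at MT-ND1, MT-CO1, MT-ND5, MT-ND6 and the tRNA genes, and below them at MT-ND2, MT-ND3, MT-CO2 and MT-CYB.

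Nuclear genes for mitochondrial proteins were mostly lower. Of the 81 mitochondrial ribosomal protein genes, 69 were lower and 1 higher, with a median log2 fold change of -0.62 against -0.06 over all tested genes. The exception, MRPS6, shares its locus with SLC5A3. Complex I had 39 of 51 genes lower (median -0.51), among them the assembly factor NDUFAF4 (2.03 and 2.13 FPKM in the knockdown libraries, against 10.8 and 9.37 FPKM in the control libraries), and 1 higher, NDUFC2 (0.57). Of 48 nuclear genes of complexes II to V, 41 were lower and 0 higher (median -0.58). All 9 complex III genes were among them, as were 14 of 16 ATP synthase genes, with ATP5ME at 74.0 and 70.9 FPKM with PPA2 knocked down, compared with 199.9 and 179 FPKM with the control hairpin. All these lists hold short genes, with a median exon length of 2539, 2475 and 2477 bases against 4714 bases over all tested genes.

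Gene length moved with the change across the whole table. The median log2 fold change of protein-coding genes was -0.20 in the first of 5 equal classes of exon length, the shortest, up to 2966 bases, and 0.06 in the longest class, from 8290 bases, with medians of -0.13, -0.05 and -0.02 between. The 3 list medians above lay below the median of the shortest class. The part of gene length in these counts was not tested.

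Among the lists examined, mitochondrial protein import had the largest share of lower genes. Of 27 genes, 25 were lower and 1 higher (median -0.67). TIMM50, a receptor of the inner membrane channel, had 8.14 and 10.6 FPKM in knockdown cells, against 23.8 and 23.1 FPKM in control cells. TOMM40, the pore of the outer membrane, had 15.2 and 14.8 FPKM in the knockdown libraries, against 38.1 and 34.7 FPKM in the control libraries. TOMM6, a small subunit of the outer membrane complex, had 0.531 and 3.47 FPKM with PPA2 knocked down, compared with 16.9 and 30.6 FPKM with the control hairpin (log2 fold change -3.19 ± 0.48, adjusted p = 0.0014). Its libraries differed within both groups, and its log2 fold change ran from -3.96 to -2.41 when 1 library was left out, being lowest without knockdown library 2. All 6 mitochondrial chaperones were lower, led by HSPE1, the lid of the matrix chaperonin, at 147 and 147 FPKM in knockdown cells, against 414 and 389.6 FPKM in control cells. Proteases completed that list, with 12 of 16 lower in all.

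Genes that copy and read mitochondrial DNA were mostly lower while its transcripts summed higher. Of 34 genes tested, 25 were lower and 3 higher (median -0.51). The count of higher genes was 1 without either knockdown library. All 6 tested transcription genes and 9 of 11 RNA processing genes were lower. SLIRP, which binds and stabilizes mitochondrial mRNAs, had 44.2 and 32.3 FPKM in the knockdown libraries, against 115 and 97.6 FPKM in the control libraries. PNPT1, an exoribonuclease that degrades mitochondrial RNA, had 11.2 and 10.9 FPKM with PPA2 knocked down, compared with 27.7 and 32.5 FPKM with the control hairpin. SSBP1, which coats single-stranded mitochondrial DNA, had 62.6 and 64.0 FPKM in knockdown cells, against 141 and 115 FPKM in control cells. All 3 were lower without overlap, at log2 fold changes of -1.46, -1.36 and -1.001. In the TCA cycle list, 18 of 27 were lower, including IDH3B (-1.02), GOT2 (-0.80) and citrate synthase CS (-0.69). Of the list, 2 genes were higher, IDH2 (0.41) among them.

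Mitophagy and dynamics were mixed, as 5 of 18 tested genes were higher and 5 lower, 27.8% each way. Over all tested genes the shares were 24.6% and 33.8%, so these counts do not set the list apart. The count of higher genes was 10 after rescaling to a common sum. BNIP3L, a mitophagy receptor and HIF target, had 211 and 208 FPKM in the knockdown libraries, against 70.7 and 73.3 FPKM in the control libraries (log2 fold change 1.53 ± 0.060). PINK1, the kinase that marks damaged mitochondria, had 28.9 and 29.3 FPKM with PPA2 knocked down, compared with 16.9 and 17.1 FPKM with the control hairpin. PHB2, an inner membrane scaffold, fell to 75.2 and 71.6 FPKM in knockdown cells, against 181 and 175 FPKM in control cells. Lower genes of the list numbered 2 without either knockdown library and 3 without control library 2, and higher genes 3 without knockdown library 1.

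HIF targets differed in both directions. Of 36 tested HIF targets outside glycolysis, 16 were higher (44.4%) and 10 lower (27.8%), with a median of 0.07. Over all tested genes, 24.6% were higher and 33.8% lower. Hydroxylases and oxygen sensors were the higher subgroup, with 7 of 9 called higher and 1 lower (median 0.82). PLOD2, a collagen lysyl hydroxylase, had 327 and 327 FPKM in the knockdown libraries, against 119.6 and 129.5 FPKM in the control libraries (log2 fold change 1.39 ± 0.067, adjusted p = 2.93e-05). CA9, a surface carbonic anhydrase that sets pH, had 3.11 and 3.50 FPKM with PPA2 knocked down, compared with 0.490 and 0.345 FPKM with the control hairpin (log2 fold change 1.60 ± 0.14) and stayed low in both groups, below 1 FPKM in both control libraries. On the lower side, ANKRD37 had 30.2 and 26.3 FPKM in knockdown cells, against 152 and 162 FPKM in control cells (log2 fold change -2.43 ± 0.082, adjusted p = 1.05e-05). ADM, the peptide hormone adrenomedullin, had 61.2 and 63.7 FPKM in the knockdown libraries, against 202 and 185 FPKM in the control libraries. JMJD6, a lysyl hydroxylase that acts on splicing factors, had 12.96 and 11.9 FPKM with PPA2 knocked down, compared with 39.5 and 41.7 FPKM with the control hairpin. DDIT4, a HIF and stress target that restrains mTORC1, had 389 and 380.4 FPKM in knockdown cells, against 1101 and 1009 FPKM in control cells (log2 fold change -1.45 ± 0.074). Both knockdown libraries lay below both control libraries for each of these genes.

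ACGTG stood in 21 of 33 promoters matched for this list, against 21.6% of all 27305 RefSeq promoters of the same length. It was in 6 of 7 matched promoters of lower members and 7 of 13 of higher members. GCGTG, the other form of the core, was not counted. The match is a description of the sequence and not a measured site.

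HIF subunits and their sensors were higher in part. EPAS1, which encodes HIF-2 alpha, had 20.6 and 19.4 FPKM in the knockdown libraries, against 6.53 and 8.72 FPKM in the control libraries (log2 fold change 1.29 ± 0.13, adjusted p = 2.36e-04). HIF1A had 24.3 and 24.3 FPKM with PPA2 knocked down, compared with 31.5 and 32.5 FPKM with the control hairpin (log2 fold change -0.38 ± 0.065, adjusted p = 0.00241), and this call was lost with the mitochondrial genome left out (log2 fold change -0.19, adjusted p = 0.0528). Both beta subunits and all 4 hydroxylases that mark or silence HIF alpha were higher, among them EGLN3 with 121 and 125 FPKM in knockdown cells, against 57.5 and 57.6 FPKM in control cells. EGLN2, another of the 4, had 20.6 and 19.3 FPKM in the knockdown libraries, against 10.9 and 12.98 FPKM in the control libraries. HIF3A, the remaining alpha subunit, was at 0.0227 FPKM or less in every library. Of the 5 degradation genes, 4 were lower, led by ELOB (-0.56). The lower genes of the whole list numbered 5, but 3 without either knockdown library and 1 with the mitochondrial genome left out.

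Glycolysis genes were higher in more cases than they were lower. Of 29 genes, 16 were higher and 5 lower (median 0.30). Higher genes made up 7 of 9 in the upper part of the pathway and 3 of 6 in the lower part. The list also holds 8 regulators, TXNIP among them, of which 3 were higher and 1 lower. LDHA, which makes lactate, had 2117 and 2251 FPKM with PPA2 knocked down, compared with 1329 and 1216 FPKM with the control hairpin (log2 fold change 0.78 ± 0.085, adjusted p = 3.63e-04). ALDOC, an aldolase, had 29.9 and 31.4 FPKM in knockdown cells, against 11.3 and 11.6 FPKM in control cells. PDK3, a kinase that shuts pyruvate dehydrogenase, had 11.5 and 10.9 FPKM in the knockdown libraries, against 3.20 and 3.95 FPKM in the control libraries. The groups did not overlap for any of the 3. Both glucose transporters of the list were lower, with SLC2A3 at 86.8 and 86.9 FPKM with PPA2 knocked down, compared with 123 and 131 FPKM with the control hairpin. The count of lower genes was 2 without either knockdown library.

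Most cytosolic heat shock genes were lower. Of 22 tested members, 16 were lower, 5 of 6 HSP70 genes and all 7 genes of the HSP90 group, and 1 was higher, the collagen chaperone SERPINH1 (0.40). Their median log2 fold change was -0.49. HSPA1B, the main inducible HSP70, had 28.3 and 31.5 FPKM in knockdown cells, against 305 and 278 FPKM in control cells (log2 fold change -3.24 ± 0.079, adjusted p = 3.94e-06). HSPA1A, its near-identical neighbour, had 1.77 and 2.03 FPKM in the knockdown libraries, against 28.4 and 29.4 FPKM in the control libraries, and reads of the pair may have been split between them in counting. DNAJB1, the HSP40 partner of HSP70, had 57.4 and 57.8 FPKM with PPA2 knocked down, compared with 454 and 432 FPKM with the control hairpin (log2 fold change -2.92 ± 0.062, adjusted p = 1.81e-06). HSPA6, a strictly inducible HSP70 outside the list, was almost absent from knockdown cells at 0.204 and 0.345 FPKM in knockdown cells, against 17.0 and 16.9 FPKM in control cells (log2 fold change -3.82 ± 0.11, adjusted p = 7.22e-06). HSPH1, which recharges HSP70, had 36.5 and 35.7 FPKM in the knockdown libraries, against 96.2 and 102 FPKM in the control libraries. HSP90AA1, inducible HSP90, had 777 and 766 FPKM with PPA2 knocked down, compared with 1435 and 1521 FPKM with the control hairpin. HSPA8, the constitutive HSP70, was lower by less (log2 fold change -0.54 ± 0.068). GAANNTTC stood in 9 of 22 matched promoters of the list and in 5 of 14 of its lower members, against 6.87% of all promoters. The 1 higher member held it too, and the share among lower members was not above that of the whole list. The match describes the sequence, and no binding was measured.

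Genes of the unfolded protein response of the endoplasmic reticulum were more often higher than lower. Of 22 genes, 12 were higher and 4 lower (median 0.28), led by SEL1L, a part of the disposal machinery (14.4 and 14.7 FPKM in knockdown cells, against 8.03 and 9.49 FPKM in control cells), and the chaperone CANX (333 and 333 FPKM in the knockdown libraries, against 211 and 234 FPKM in the control libraries). The count of higher genes was 7 without knockdown library 1 and 5 without knockdown library 2. DNAJB11, another chaperone, was lower (-0.61).

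The integrated stress response, in which ATF4 raises amino acid and feedback genes, had more genes lower than higher. Of 34 tested genes, 22 were lower and 4 higher (median -0.35). With the mitochondrial genome left out, 15 were lower and 7 higher (median -0.16). PPP1R15A, the phosphatase subunit that ends the response, had 22.3 and 25.1 FPKM with PPA2 knocked down, compared with 89.1 and 78.7 FPKM with the control hairpin. DDIT3, the transcription factor CHOP, had 15.6 and 16.5 FPKM in knockdown cells, against 45.2 and 42.8 FPKM in control cells. All 6 genes of this list that act on tRNA were lower, and so were 7 of 9 amino acid synthesis genes. SESN2, a sensor that restrains mTORC1, was higher at 8.07 and 7.38 FPKM in the knockdown libraries, against 3.64 and 4.20 FPKM in the control libraries. Its relative SESN3 was higher too (10.1 and 9.98 FPKM with PPA2 knocked down, compared with 3.46 and 4.05 FPKM with the control hairpin).

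Immediate early genes differed in both directions, and the largest falls were in JUN, EGR1 and IER3. JUN, a subunit of AP-1, had 5.53 and 5.21 FPKM in knockdown cells, against 31.0 and 28.9 FPKM in control cells (log2 fold change -2.28 ± 0.080, adjusted p = 1.20e-05). EGR1, a zinc finger factor, had 6.89 and 6.78 FPKM in the knockdown libraries, against 30.7 and 27.2 FPKM in the control libraries. IER3, an early response gene, had 113 and 113 FPKM with PPA2 knocked down, compared with 446 and 402 FPKM with the control hairpin. No knockdown value reached a control value for these 3. Of 31 tested genes, 14 were lower (45.2%) and 8 higher (25.8%), against 33.8% and 24.6% of all tested genes. After rescaling to a common sum, 9 were lower. Of the 7 AP-1 genes tested, 0 were higher and 5 lower, while the 7 zinc finger factors had 2 higher and 2 lower. The growth inhibitor BTG2 (7.64 and 8.02 FPKM in knockdown cells, against 2.52 and 2.40 FPKM in control cells) and the kinase SGK1 (2.39 and 2.95 FPKM in the knockdown libraries, against 1.10 and 0.654 FPKM in the control libraries) were higher.

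Inflammatory genes differed in both directions. Chemokines were mostly lower, with 5 of 8 lower and 2 higher. CXCL8, the neutrophil attractant interleukin 8, had 3.84 and 3.78 FPKM with PPA2 knocked down, compared with 17.2 and 16.9 FPKM with the control hairpin (log2 fold change -1.91 ± 0.082, adjusted p = 2.29e-05). CXCL2 had 1.63 and 1.77 FPKM in knockdown cells, against 9.52 and 5.79 FPKM in control cells. Of 7 cytokines, 5 were higher and 2 lower, with IL32 among the higher ones with 10.2 and 10.5 FPKM in the knockdown libraries, against 5.04 and 4.17 FPKM in the control libraries. Against 24.6% higher and 33.8% lower over all tested genes, the NF-kB list as a whole had 10 of 26 each way (38.5%). Its median was -0.11 as deposited and 0.01 after rescaling to a common sum, and the count of higher genes was 5 without knockdown library 2.

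Genes of antigen presentation were mostly higher. Of 21 genes of the MHC class I pathway, 16 were higher and 1 lower (median 0.36), including 7 of 8 genes for peptide transport and loading. HLA-B, a class I heavy chain, had 55.9 and 57.2 FPKM with PPA2 knocked down, compared with 19.04 and 17.8 FPKM with the control hairpin (log2 fold change 1.57 ± 0.068, adjusted p = 2.33e-05), although class I genes are alike and may share reads. ERAP1, which trims peptides, had 13.7 and 14.2 FPKM in knockdown cells, against 4.46 and 4.69 FPKM in control cells. PSMB9, an immunoproteasome subunit, had 12.9 and 14.8 FPKM in the knockdown libraries, against 6.47 and 6.23 FPKM in the control libraries. The count of higher genes was 10 without knockdown library 2. Interferon-stimulated genes had 13 of 29 higher and 3 lower (median 0.23, and 0.0045 among those with a mean of at least 10 FPKM), with MX2, an antiviral GTPase, at 8.48 and 8.03 FPKM with PPA2 knocked down, compared with 3.59 and 3.69 FPKM with the control hairpin. IFI6, a membrane protein, had 27.1 and 25.3 FPKM in knockdown cells, against 13.9 and 13.01 FPKM in control cells. Here the count of higher genes was 8 without knockdown library 1, and the count of lower genes 5 without control library 2.

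Metallothioneins, small proteins that bind zinc and copper, were higher in all 4 cases tested. MT1X had 61.5 and 64.6 FPKM in the knockdown libraries, against 34.2 and 25.8 FPKM in the control libraries (log2 fold change 1.06 ± 0.12), and MT1E had 87.6 and 83.2 FPKM with PPA2 knocked down, compared with 46.5 and 40.0 FPKM with the control hairpin (log2 fold change 0.97 ± 0.085). The zinc exporter SLC30A1 had 11.6 and 12.3 FPKM in knockdown cells, against 5.77 and 5.67 FPKM in control cells. Groups did not overlap for these 3, and MT1 genes are similar enough to share reads. The NRF2 list, which includes HMOX1, held genes that changed in both directions. Of 23 genes, 11 were lower and 7 higher (median -0.20, and -0.0086 with the mitochondrial genome left out), with NQO1, a quinone reductase, at 62.7 and 61.5 FPKM in the knockdown libraries, against 112 and 104 FPKM in the control libraries. TXN, which encodes thioredoxin, had 206 and 214 FPKM with PPA2 knocked down, compared with 371 and 331 FPKM with the control hairpin. Lower genes numbered 7 without knockdown library 1 and 7 without knockdown library 2, and 6 with the mitochondrial genome left out.

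Small nucleolar RNA genes were among the largest falls. Of 73 snoRNA genes tested, 66 were lower and 1 higher, but 48 had a mean under 1 FPKM in 1 of the groups, so the count is no support. SNORD14E had 0.965 and 0.0637 FPKM in knockdown cells, against 92.5 and 71.9 FPKM in control cells. SNORD6 had 0.151 and 0.954 FPKM in the knockdown libraries, against 14.8 and 19.7 FPKM in the control libraries. Both were close to 0 in both knockdown libraries and clearly present in both control libraries, with log2 fold changes of -5.84 ± 0.27 and -3.59 ± 0.25. SNORD48 (1.94 and 0.573 FPKM with PPA2 knocked down, compared with 19.6 and 14.01 FPKM with the control hairpin) and SNORA72 (0.0468 and 0.172 FPKM in knockdown cells, against 12.0 and 9.44 FPKM in control cells) were also far lower. The genes that host snoRNAs were mostly lower. Of 58 host genes that were tested, 47 were lower, 4 higher and 7 not called, with a median log2 fold change of -0.55. HSPA8, host of SNORD14E, had 664 and 683 FPKM in the knockdown libraries, against 972 and 984 FPKM in the control libraries. TAF1D, host of SNORD6 and a factor of RNA polymerase I, had 51.8 and 55.2 FPKM with PPA2 knocked down, compared with 215 and 231 FPKM with the control hairpin. snoRNAs have no poly(A) tail and are shorter than a typical sequenced fragment, so these values do not give levels of the mature RNA, and reads from host introns cannot be told apart from them.

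**Figure D4:**
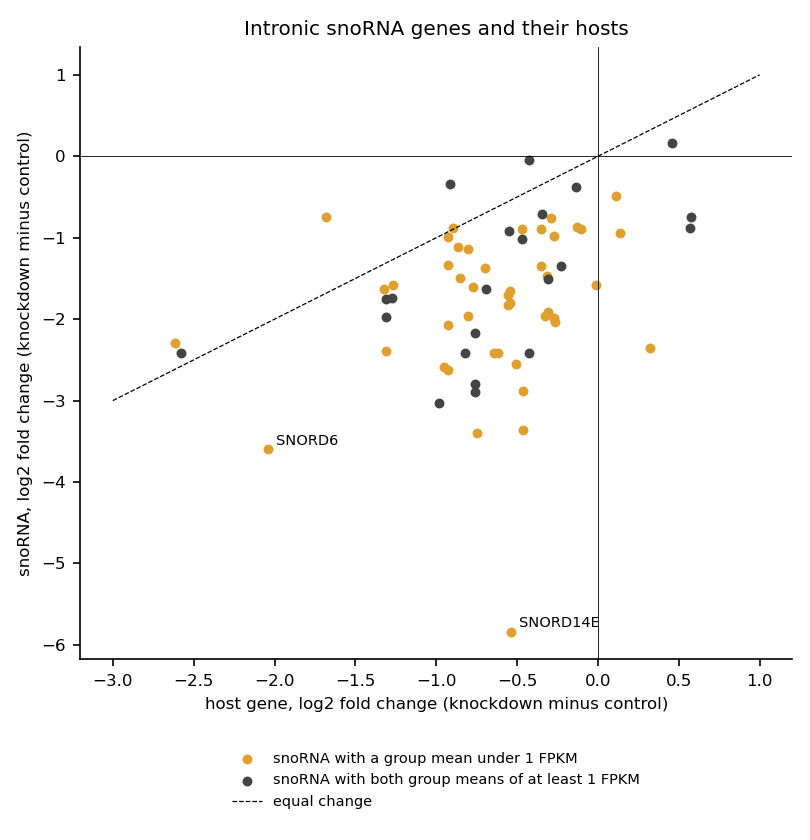
Log2 fold change (knockdown minus control) of 67 snoRNA genes against that of the gene that hosts each, with the line of equal change and, in a lighter colour, snoRNAs with a group mean under 1 FPKM. The lighter points reached the test through 1 group alone, so their place below the line is no support. SNORD14E lies lowest.

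Noncoding genes named as hosts of snoRNAs were the list with the lowest median. Of 22 genes tested, 19 were lower and 0 higher (median -1.32). SNHG12 had 8.74 and 8.58 FPKM in knockdown cells, against 61.8 and 54.8 FPKM in control cells. SNHG25 had 2.81 and 2.60 FPKM in the knockdown libraries, against 23.3 and 19.1 FPKM in the control libraries. SNHG15 had 3.99 and 4.39 FPKM with PPA2 knocked down, compared with 21.3 and 18.4 FPKM with the control hairpin. The groups did not overlap for any of the 3. Other long noncoding RNAs differed in both directions. NORAD, which binds Pumilio proteins, was higher at 113 and 113 FPKM in knockdown cells, against 42.6 and 45.1 FPKM in control cells. NEAT1, the scaffold of paraspeckles, was lower at 185 and 177 FPKM in the knockdown libraries, against 411 and 393 FPKM in the control libraries.

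Genes for ribosome production were mostly lower. All 28 nucleolar factors tested were lower, and the list of ribosome biogenesis and MYC network genes had 39 of 45 lower (median -0.75). NOP2, a methyltransferase of ribosomal RNA, had 9.74 and 9.65 FPKM with PPA2 knocked down, compared with 28.0 and 30.1 FPKM with the control hairpin. MYBBP1A, a nucleolar regulator, had 5.07 and 5.26 FPKM in knockdown cells, against 17.8 and 17.9 FPKM in control cells. MXD4, a partner of MAX that opposes MYC, was higher at 21.9 and 23.8 FPKM in the knockdown libraries, against 10.8 and 11.3 FPKM in the control libraries. Cytosolic ribosomal protein genes had 72 of 83 lower and 0 higher (median -0.58). RPL22L1, a paralog of RPL22, fell furthest, at 30.4 and 30.9 FPKM with PPA2 knocked down, compared with 155 and 139 FPKM with the control hairpin. RPS29 had 116 and 114 FPKM in knockdown cells, against 340.5 and 295 FPKM in control cells. RPL34 had 208 and 216 FPKM in the knockdown libraries, against 545 and 444 FPKM in the control libraries. Under the other scalings, the median stayed at -0.39 or lower for ribosomal proteins and at -0.56 or lower for ribosome biogenesis.

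Other machinery for protein and RNA was lower as well. Of 37 aminoacyl-tRNA synthetases, enzymes that release pyrophosphate, 30 were lower, 17 of 20 cytosolic and 13 of 17 mitochondrial ones, with MARS1, for methionine, at 36.4 and 36.5 FPKM with PPA2 knocked down, compared with 91.2 and 88.3 FPKM with the control hairpin. SARS2, the mitochondrial enzyme for serine, had 4.40 and 5.05 FPKM in knockdown cells, against 13.5 and 11.4 FPKM in control cells. Translation factors had 24 of 39 lower, and the translation inhibitor EIF4EBP2 was higher (26.9 and 26.9 FPKM in the knockdown libraries, against 15.01 and 16.3 FPKM in the control libraries). Of 34 SR proteins, their kinases and hnRNPs, 27 were lower, with the kinase CLK1 at 35.2 and 35.9 FPKM with PPA2 knocked down, compared with 117 and 118 FPKM with the control hairpin. The constitutive proteasome had 27 of 31 genes lower and 0 higher, in a narrow range of log2 fold changes from -0.79 to -0.15.

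Most tested genes of cell division were lower. Of 43 replication genes, 33 were lower, all 12 licensing genes among them (median -0.53). Of the 10 genes of S-phase entry, 3 were lower and 1 higher (median 0.0080). Of 6 core histone genes of the replication-dependent kind that were tested, 3 were higher and 0 lower. The 2 linker histone genes tested were both lower. In each of these kinds, 1 gene averaged under 1 FPKM in 1 of the groups. GMNN, which limits licensing to once a cycle, had 13.1 and 12.8 FPKM in knockdown cells, against 28.2 and 28.1 FPKM in control cells. ORC6, a part of the origin complex, had 11.9 and 10.4 FPKM in the knockdown libraries, against 24.2 and 23.5 FPKM in the control libraries. Of 34 genes of G2 and mitosis, 23 were lower, with cyclin CCNB1 at 26.3 and 27.5 FPKM with PPA2 knocked down, compared with 56.6 and 58.1 FPKM with the control hairpin. AURKA, a spindle kinase, had 12.4 and 13.96 FPKM in knockdown cells, against 28.0 and 28.7 FPKM in control cells. Nucleotide synthesis had 16 of 30 lower, led by CTPS1, which makes CTP (8.65 and 8.03 FPKM in the knockdown libraries, against 23.9 and 25.2 FPKM in the control libraries). Among p53 targets and BCL2 family genes, 11 of 22 were higher and 5 lower (median 0.22, but -0.026 among those with a mean of at least 10 FPKM), the higher ones including the death promoters BMF (7.33 and 7.28 FPKM with PPA2 knocked down, compared with 1.55 and 3.53 FPKM with the control hairpin) and BCL2L11 (11.8 and 10.6 FPKM in knockdown cells, against 4.52 and 4.47 FPKM in control cells).

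Most tested adhesion genes were higher. Of 25 junction and keratin genes, 17 were higher and 2 lower (median 0.55), and 18 of 27 integrin, laminin and plasminogen genes were higher and 1 lower (median 0.50). KRT20, a keratin of mature colon epithelium, had 59.2 and 58.6 FPKM in the knockdown libraries, against 21.96 and 24.6 FPKM in the control libraries (log2 fold change 1.30 ± 0.075, adjusted p = 4.50e-05). CLDN1, a tight junction protein, had 3.45 and 3.70 FPKM with PPA2 knocked down, compared with 1.20 and 1.19 FPKM with the control hairpin. CDH1, which encodes E-cadherin, had 268 and 239.8 FPKM in knockdown cells, against 141 and 130.5 FPKM in control cells. PLAU, the urokinase that activates plasmin, had 7.81 and 7.51 FPKM in the knockdown libraries, against 2.69 and 2.72 FPKM in the control libraries. ITGA2, a collagen receptor subunit, had 24.5 and 24.7 FPKM with PPA2 knocked down, compared with 9.96 and 13.5 FPKM with the control hairpin. TFF3, a goblet cell peptide, was higher at 20.97 and 22.1 FPKM in knockdown cells, against 8.02 and 8.03 FPKM in control cells. VIL1, a brush border protein, was lower at 1.35 and 1.32 FPKM in the knockdown libraries, against 4.51 and 3.92 FPKM in the control libraries. LGR5, a WNT target and stem cell receptor, had 3.78 and 3.61 FPKM with PPA2 knocked down. With the control hairpin it had 13.4 and 14.1 FPKM (log2 fold change -1.65 ± 0.087). The WNT list, however, had 9 of 17 genes higher (52.9%) and 5 lower (29.4%), against 24.6% and 33.8% of all tested genes. Lower genes there numbered 3 without knockdown library 1 and 2 without knockdown library 2.

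Lipid, lysosome and mTORC1 lists gave mixed or small changes. Cholesterol synthesis and uptake had 11 of 26 genes higher and 4 lower (median 0.14). Higher genes there numbered 7 without knockdown library 1, and lower genes 1 without knockdown library 1 and 2 without knockdown library 2. HILPDA, a HIF target that stores fat in droplets, was lower at 102 and 99.1 FPKM in knockdown cells, against 266 and 255 FPKM in control cells. The desaturase SCD was higher at 195 and 196 FPKM in the knockdown libraries, against 103 and 113 FPKM in the control libraries. The medians of the fatty acid, lysosome and mTORC1 lists, from -0.06 to 0.00, changed sign under other scalings. The mTORC1 list had 5 of 15 genes higher and 6 lower, with log2 fold changes from -1.45 to 3.97. Its median was -0.52 among the 8 genes with a mean of at least 10 FPKM.

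**Figure D5:**
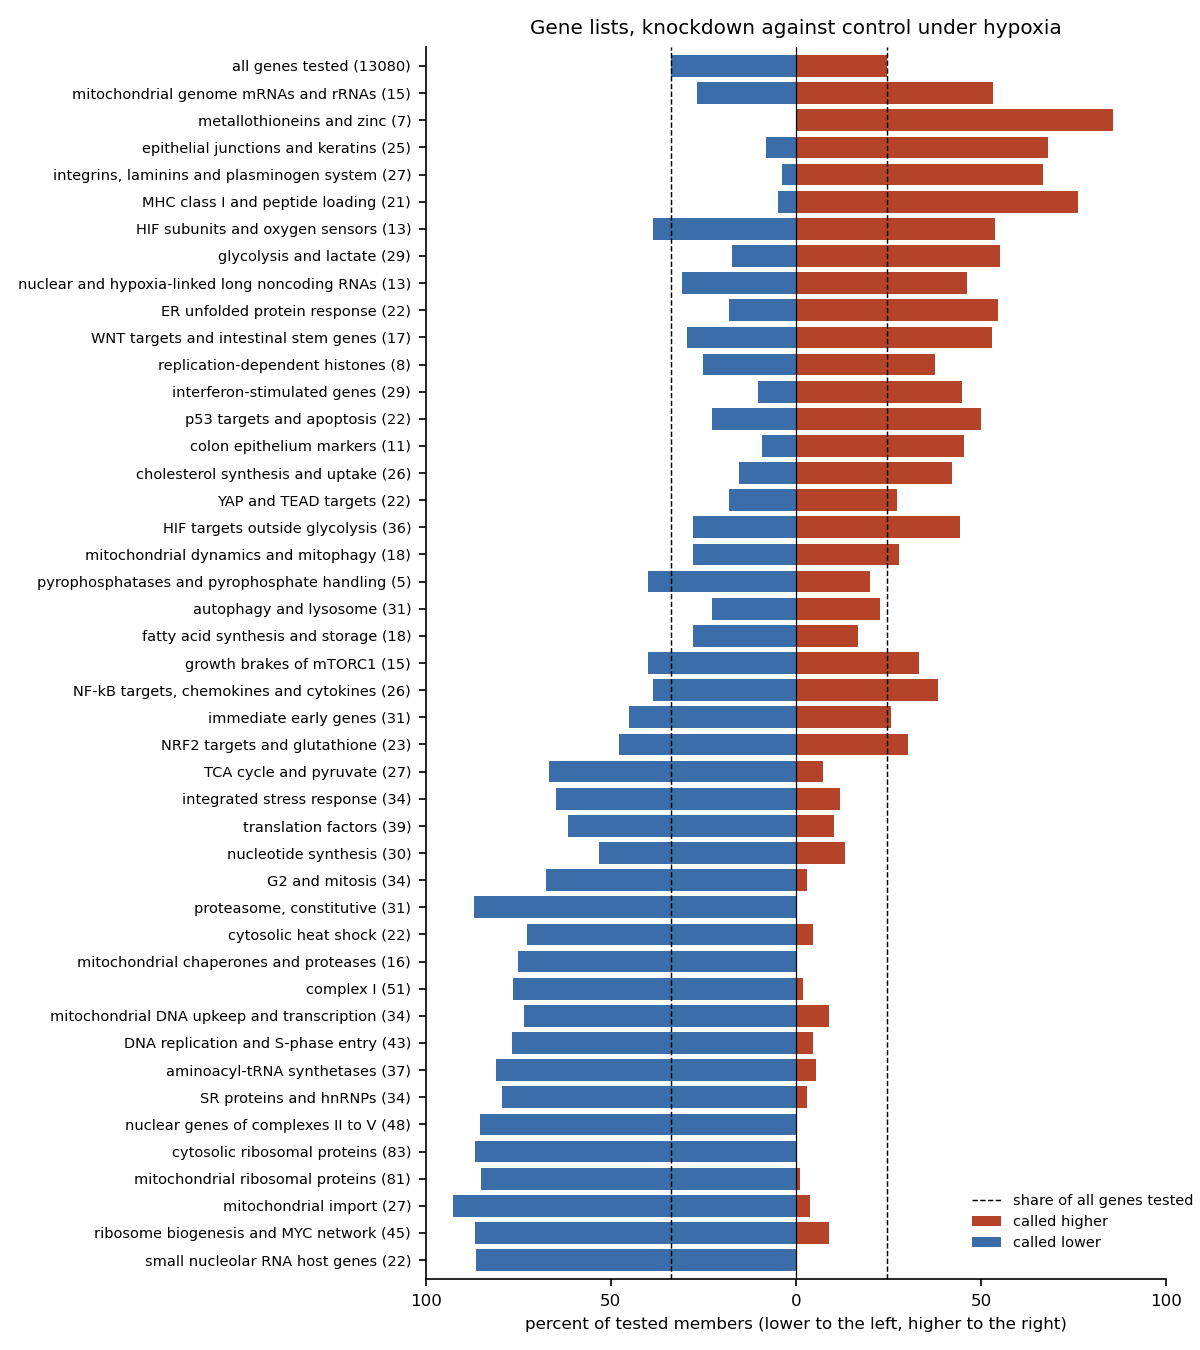
Percent of tested members called higher (right) and lower (left) for lists with at least 5 tested genes, sorted by median log2 fold change, with the number tested in brackets and dashed lines at the shares of all genes tested, 24.6% and 33.8%. Metallothioneins, adhesion lists and MHC class I lie far to the right, and ribosome, mitochondrial and snoRNA host lists far to the left.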

How the data were processed

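Poly(A) RNA of 4 libraries was measured. Per the labels, RNA came from Trizol extraction with DNase treatment, and a directional kit was used for the libraries. Per the submitters' processing notes, cutadapt 1.18, Trimmomatic 0.35 and FastQC were used, and reads were aligned to GRCh38 with HISAT2 2.1.0. No source used here states which tool, strand setting or annotation gave the gene values. The authors deposited FPKM values by gene, per the file headers, with no counts, so depth is unknown and no interval for counting error can be given. The table's 4 columns of samples outside the series were not used.

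Genes with a mean of at least 1 FPKM over the 4 libraries were tested on log2(FPKM + 1) with limma 3.58.1 (R 4.3.3) and a mean-variance trend. P-values were adjusted over all tested genes by Benjamini-Hochberg, and a gene was called at an adjusted p under 0.05. The same steps were run on simulated data with few genes changed and no shift in scaling. That setting differs from these data, so the run is no support for the calls here. Tables were joined in Python 3.11.15 with pandas 2.3.3. Gene classes, coordinates and exon lengths came from GENCODE 29 (GRCh38) by Ensembl identifier. Promoters came from RefSeq (GRCh38.p14), with the first entry taken for each symbol.

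The genes and lists were chosen with earlier results of these data known. Named genes were PPA2, PPA1, the 12 largest called rises and falls with at least 10 FPKM in the higher group and no overlap, the 5 largest rises and falls in FPKM, up to 3 called members per list and direction, and all members of the pyrophosphatase, HIF subunit, metallothionein and mitochondrial genome lists, most of these given as counts and ranges. A few genes that this rule names are not reported here. LDHA, HSPH1, HSP90AA1, HSPA8 as a host, and the protein-coding rises SLC5A3, NPNT, SPTSSB, PCDH1, CDH17, ATP1B1 and MGAT5 were named after their values were seen. Alternatives covered the pseudocount, the filter, scaling, the limma settings, the replicate block, the threshold and each library left out.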

Additional observations from a re-analysis of the deposited data

How the results depend on the processing

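Genes called numbered 1597 higher and 2732 lower among genes with a mean of at least 10 FPKM, where fewer genes were tested, and 355 higher and 682 lower when a change of at least 2-fold was also required. With no filter they numbered 2697 higher and 3370 lower, and at an adjusted p under 0.01 they numbered 2214 higher and 3281 lower. Leaving out 1 library gave 2279 to 3376 genes higher, 3424 to 4348 lower and a PPA2 log2 fold change of -2.67 to -2.32, where the lone library left in a group is assumed to vary like those of the other group. Whether the replicate numbers pair the libraries is unknown. Deviations of same-numbered libraries from their group means correlated at -0.02, but 2 pairs are too few to settle it. With the replicate block, 3271 genes were higher, 4480 lower and PPA2 at -2.49, and none of the other 137 genes tested by name changed its call. These 137 genes also kept their calls under both other pseudocounts, with no trend and with a robust trend. MT-CO3, not called in the report, had log2 fold changes of 0.059 after rescaling to a common sum and 0.0080 after median-ratio scaling, and -0.20 to 0.074 when 1 library was left out. LHPP, also not called, ran from -0.094 to 0.19 when 1 library was left out, and the cause was not tested. With no filter, 4 of the 137 genes lost their calls, MT-CO2 among them. Without counts, changes of genes at 1 FPKM or less cannot be set against counting error.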

Other observations

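Gene classes outside the lists were looked at after their values were seen. Over all genes tested, 24.6% were higher and 33.8% lower. Of 309 long intergenic noncoding RNA genes tested, 108 were higher and 51 lower in knockdown cells, with a median log2 fold change of 0.19 against -0.06 over all genes tested, and 70 of them averaged under 1 FPKM in 1 of the groups. MicroRNA genes, short sequences whose reads in a poly(A) library come from precursors or host transcripts, had 13 higher and 40 lower of 81 tested, with a median of -0.65, but 42 of them averaged under 1 FPKM in 1 of the groups. Small nuclear RNA genes had 0 higher and 10 lower of 18 tested, but 11 of them averaged under 1 FPKM in 1 of the groups. Processed pseudogenes had 15 higher (7.98%) and 55 lower (29.3%) of 188 tested, with a median of -0.22. Both shares were below those of all genes tested, the share of higher genes by more. Of these pseudogenes, 31 averaged under 1 FPKM in 1 of the groups.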
